A study of Zea mays and Oryza sativa with 119 samples.

Results

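The maize leaf genes described here are 4 genes of the cell wall, 2 that encode cellulose synthases and 2 that encode wall-loosening proteins. They are CesA-6 (GRMZM2G113137), CesA-7 (GRMZM2G025231), xth1 (GRMZM2G119783) and EXPA5 (GRMZM2G361064), 4 of the 110005 features of the maize table. They were chosen by identifier, with earlier results from these same libraries known. Their own pattern is therefore given as a description, with no test. All 4 were measured in every library used and lay above the filter on low values.

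A grass leaf grows from its base, so that cells divide, elongate and mature in order along the blade. Cellulose synthases, coded by CesA genes, form complexes in the plasma membrane that spin cellulose into the wall. In maize, CesA-1 to CesA-9 are associated with the primary wall of growing cells, and CesA10, CesA11 and CesA12 with the secondary wall of cells that have stopped growing. Xyloglucan endotransglucosylases, coded by xth and xet genes, cut and rejoin the xyloglucan chains that lie along cellulose. Expansins loosen the contacts between wall polymers without cutting them, and are known for a part in cell elongation.

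The RNA came from the third leaf of 9-day seedlings of maize B73, grown at 31 °C by day and 22 °C by night with 12 h of light. Leaves were divided into 15 sections of 1 cm, numbered 1 to 4 and 6 to 16, and each replicate pooled 7 plants on average. Replicates are numbered 1, 2, 3, 4 and 6, which gives 5 libraries a section, and all sections share strain, age and treatment. The labels do not say which end section 1 comes from. The series title names C4 differentiation, compared between maize and rice, as its question. The rice libraries were not used here.

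Of 75 maize libraries 69 were used. The 6 left out, section 1 replicate 2, section 3 replicate 6 and section 7 replicates 2, 3, 4 and 6, listed 39.3 to 91.0% of the tested genes at 0, against 6.16 to 33.0% in those used. Section 7 therefore rests on 1 library, replicate 1. Depth relative to the median library, read from the steps between low values, ran from 0.117 to 1.87 in the libraries used, and FPKM gives no read totals. It differed between sections, at 0.871 to 1.52 in section 4, 0.154 to 0.5 in section 8 and 0.308 to 0.871 in section 9. Set against the mean profile of each section, 46 libraries matched their own section best and 18 a neighbouring one. Section 7 replicate 1 is among the 18, with no other library of its section to match. A section 2 steps away was closest for 2 libraries, section 14 replicate 3 (closest to 12) and section 15 replicate 6 (closest to 13). Another 3 matched a section 3 or more steps away and are called out of place: section 12 replicate 4 (closest to section 9), section 14 replicate 2 (closest to 4) and section 16 replicate 3 (closest to 12). As a check of the tissue, the summed level of 4 photosynthesis genes (pep1, ME1, C4ppdkZm1 and rbcS) had a median of 673 FPKM in section 1 and 26391 in section 9. The summed level of 4 genes of dividing cells (PCNA, pcna2, RNRS3 and H4C13) had a median of 1868 FPKM in section 1 and 9.75 in section 9.

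The highest section mean was in section 2 for CesA-6, in section 3 for xth1, in section 4 for CesA-7 and in section 7 for EXPA5. Section 2 was highest in all 5 replicates for CesA-6, and section 4 in 4 of 5 for CesA-7. For xth1, section 3 was highest in 3 replicates and section 2 in 2, with overlapping ranges. The section 7 value of EXPA5 is 1 library, and section 7 was highest in that 1 replicate alone. Levels are in FPKM, which scales fragments by transcript length and by library, and so allows a comparison between genes of different length. Averaged over the 69 libraries, CesA-7 stood at 109 FPKM, xth1 at 92.6, CesA-6 at 45.5 and EXPA5 at 6.30. In bulk samples, fewer cells of a type and less RNA per cell cannot be told apart.

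**Figure D1:**
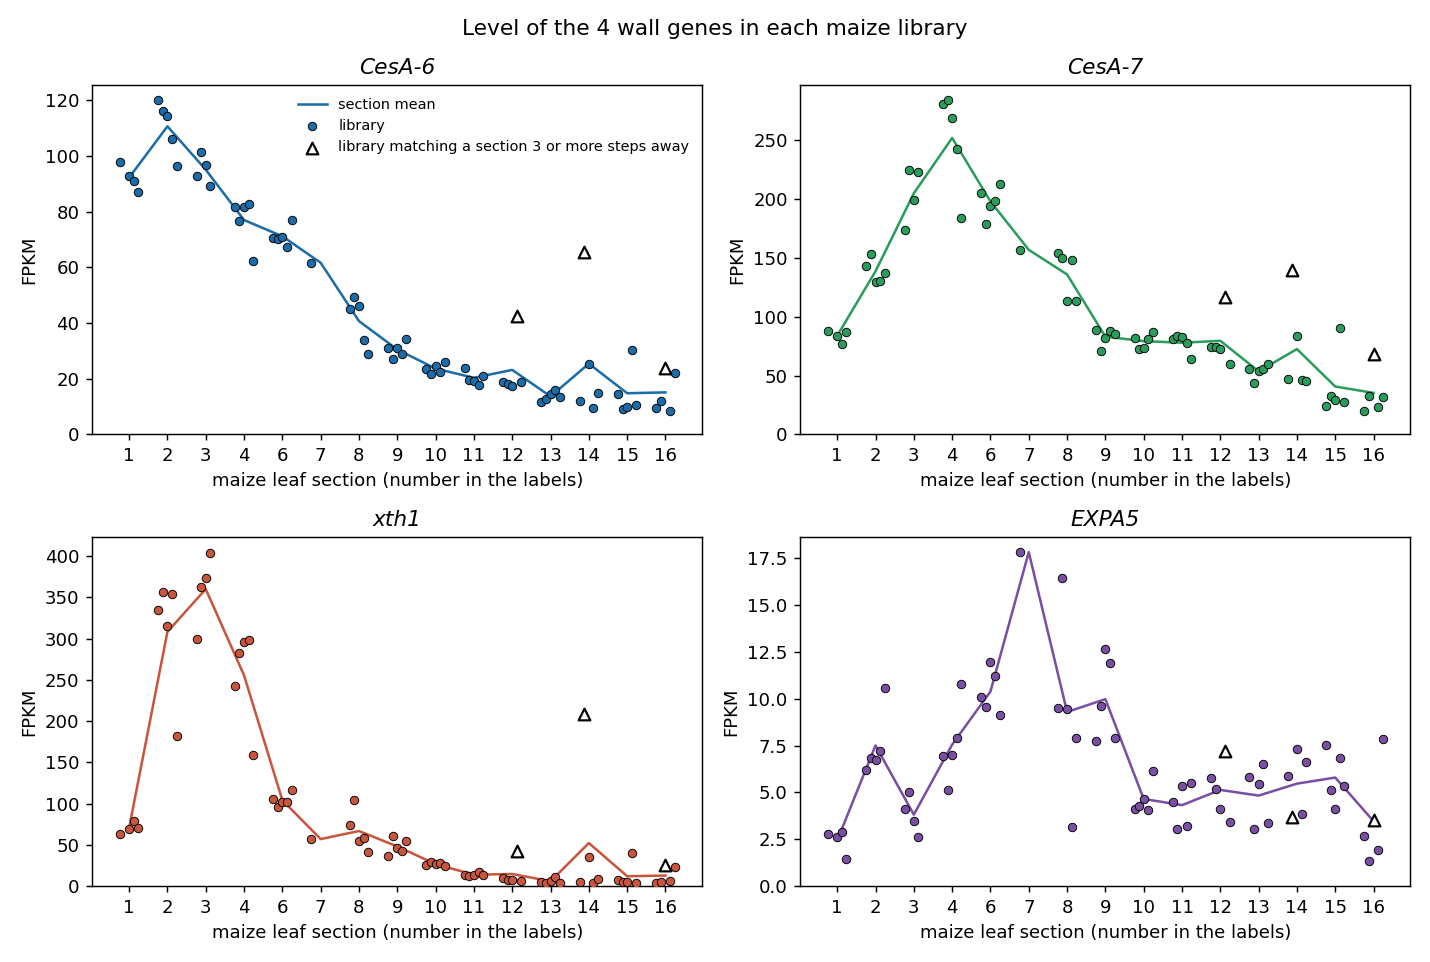
Level of each of the 4 genes in FPKM (vertical axis, linear and different for each gene) in the 69 maize libraries used, by leaf section in the order of the labels (horizontal axis). Points are libraries, triangles the 3 out of place libraries and lines the section means. CesA-6 is highest in section 2, xth1 in sections 2 and 3, CesA-7 in section 4 and EXPA5 between sections 6 and 9.

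CesA-6, which codes for a primary wall cellulose synthase, was high from the first section on. It read 97.8, 92.8, 90.9 and 87.2 FPKM in section 1 (replicates 1, 3, 4 and 6), and 119.9, 116.2, 114.4, 106.0 and 96.3 in section 2. The ranges of these sections overlapped, but section 2 was the higher one in 4 of 4 replicates with both, and it was the highest section in all 5 replicates. The mean was 92.2 ± 4.4 FPKM in section 1 (SD, n = 4) and 111 ± 9.4 in section 2 (n = 5).

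From there CesA-6 stood lower in each section as far as section 11. It read 81.8, 76.7, 81.5, 82.6 and 62.3 FPKM in section 4 (replicates 1, 2, 3, 4 and 6), and 31.0, 27.2, 30.9, 29.0 and 34.4 in section 9. These groups did not overlap. The level stayed at or above 50% of its highest section mean as far as section 7, at 61.6 FPKM in its 1 library, and the section 8 mean was 40.7 ± 8.8. In section 16 the libraries read 9.33, 12.0, 23.8, 8.47 and 21.9 FPKM, all under the lowest library of section 9. The value of 23.8 was the out of place replicate 3, and that of 21.9 was replicate 6, of the lowest depth used (0.117). The lowest mean was 13.7 ± 1.7 FPKM in section 13, 8.09-fold under that of section 2. Without the out of place libraries it was 12.9 FPKM, in section 16, and the fold was 8.55. By median over the libraries used, section 15 was lowest for CesA-6, at 10.4 FPKM against 13.3 in section 13.

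CesA-7, the cellulose synthase gene with the higher level in most sections, started low and built up. It read 88.0, 83.5, 77.3 and 86.9 FPKM in section 1 (replicates 1, 3, 4 and 6), and 142.9, 153.1, 129.3, 130.5 and 137.6 in section 2. In section 4 the 5 libraries read 281.2, 283.9, 268.7, 242.3 and 184.1 FPKM, with a mean of 252 ± 41 (SD, n = 5). The ranges of sections 1 and 2 did not overlap, nor did those of 2 and 3. Section 4 was highest in 4 of 5 replicates, and replicate 6 was highest in section 6, at 213 FPKM.

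Past section 4 CesA-7 stood lower again, and in section 9 it was back within the range of section 1. It stood at 198 ± 13 FPKM in section 6 and 136 ± 21 in section 8. In section 9 the libraries read 89.2, 71.2, 81.9, 88.1 and 85.4 FPKM, which overlaps the range of section 1. The means of sections 9, 10, 11 and 12 lay between 78.0 and 83.2 FPKM, with overlapping ranges. Section 13 stood at 53.7 ± 6.2 FPKM, below every library of section 12. In section 16 the libraries read 20.1, 33.0, 68.5, 23.6 and 31.5 FPKM, the highest being the out of place replicate 3. The section 16 mean was the lowest, at 35.3 ± 19.3 FPKM, or 27.0 without that library, and the fold from section 4 was 7.13 or 9.32.

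The balance of the 2 cellulose synthase genes shifted within each library, a measure that cancels the scaling of the library. The ratio of CesA-7 to CesA-6 FPKM was 0.91 ± 0.06 in section 1 (SD, n = 4), 1.26 ± 0.12 in section 2, 2.16 ± 0.26 in section 3 and 3.27 ± 0.33 in section 4. The ranges of these 4 sections did not overlap from one to the next. CesA-6 was thus the higher of the pair in all 4 libraries of section 1, and CesA-7 in all libraries of sections 2 to 4. Across the 11 sections from 6 to 16 the mean ratio lay between 2.40 in section 16 and 3.97 in section 13, with wide overlap. The ratio of xth1 to CesA-6 had another course, from 0.77 ± 0.09 in section 1 to 3.80 ± 0.54 in section 3 and 0.43 ± 0.19 in section 13.

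**Figure D2:**
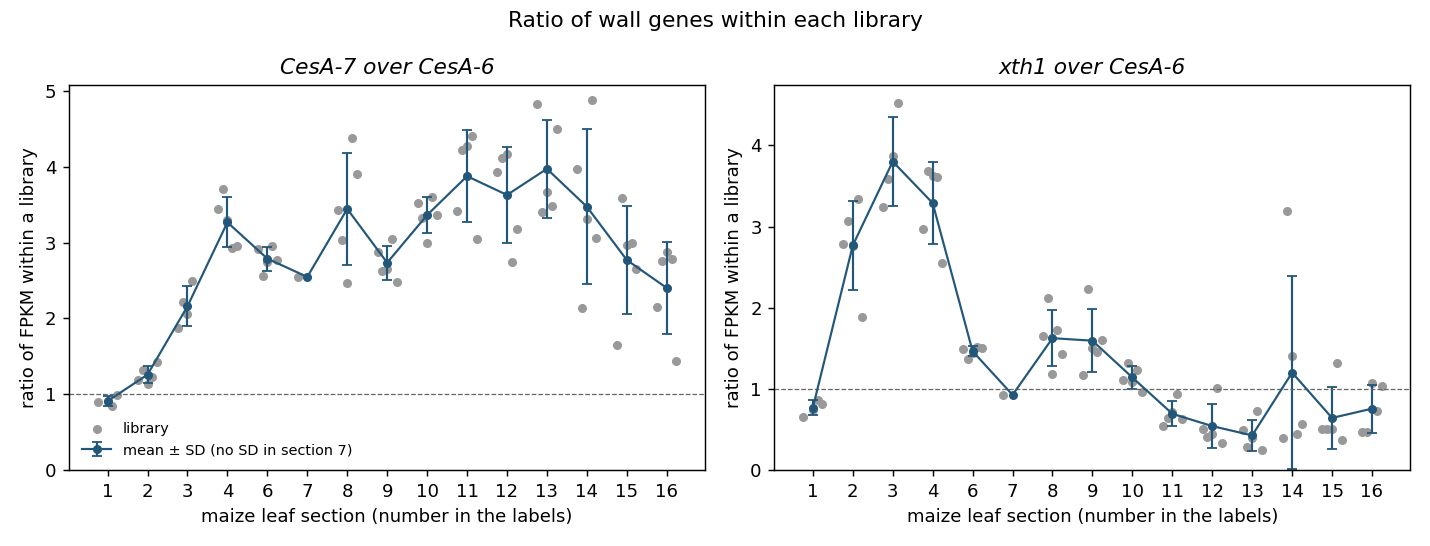
Ratio of FPKM within a library (vertical axis) by maize leaf section (horizontal axis), for CesA-7 over CesA-6 on the left and xth1 over CesA-6 on the right. Grey points are the 69 libraries, and dark points with bars are section means ± SD (n = 4 or 5, and 1 library in section 7). The left ratio goes from 0.91 in section 1 to 3.27 in section 4, and the right one from 3.80 in section 3 to 0.43 in section 13.

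The transcript of xth1, which codes for a xyloglucan endotransglucosylase/hydrolase, had the steepest course of the 4. It read 63.7, 69.3, 79.0 and 70.9 FPKM in section 1 (replicates 1, 3, 4 and 6), and 334.3, 356.3, 315.4, 353.8 and 182.2 in section 2. In section 3 it read 300.0, 363.2, 373.8 and 403.7 FPKM (replicates 1, 2, 3 and 4). Every library of sections 2 and 3 was above every library of section 1. The mean was 70.7 ± 6.3 FPKM in section 1, 308 ± 72 in section 2 and 360 ± 44 in section 3, which is 5.09-fold that of section 1. Section 3 was highest in replicates 2, 3 and 4, and section 2 in replicates 1 and 6, the latter with no section 3 library among those used. Section 3 replicate 6, left out above, read 58.5 FPKM. With that library put back the section 3 mean was 300 ± 140, and section 2 had the highest mean.

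Section 2 replicate 6, low for xth1, also differed in the photosynthesis genes. Their summed level was 11565 FPKM there and 2812 to 3068 in the other 4 libraries of section 2. The summed level of the genes of dividing cells was 291 against 449 to 559 FPKM. In section 4, where xth1 read 242.8, 282.9, 295.4, 298.2 and 158.8 FPKM, replicate 6 was again low. Its photosynthesis genes summed to 13988 FPKM against 9902 to 11466 in the other 4. The part of these differences in the xth1 values was not tested.

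Past section 4, xth1 stood at 104 ± 7.6 FPKM in section 6 with no overlap, and at 48.2 ± 9.7 in section 9. It read 25.9, 28.8, 26.8, 27.6 and 24.9 FPKM in section 10, and 13.0, 12.6, 13.9, 16.7 and 13.2 in section 11. Sections 9, 10 and 11 thus did not overlap with their neighbours among them. The lowest mean was 6.01 ± 3.3 FPKM in section 13, 60.0-fold under that of section 3. By median the lowest was section 15, at 5.04 FPKM against 5.71 in section 13. The section 15 mean of 12.1 FPKM held replicate 4 at 39.7. In section 16 xth1 read 4.42, 5.65, 25.7, 6.18 and 22.8 FPKM, with 25.7 in the out of place replicate 3 and 22.8 in replicate 6.

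EXPA5, which codes for an alpha-expansin, was the least abundant and was highest in the middle of the leaf. It read 2.79, 2.61, 2.89 and 1.47 FPKM in section 1 (replicates 1, 3, 4 and 6), and 6.19, 6.85, 6.71, 7.21 and 10.6 in section 2. In section 3 it read 4.13, 5.05, 3.45 and 2.63 FPKM, below every library of section 2. In section 4 it read 6.93, 5.14, 7.00, 7.88 and 10.8 FPKM, above every library of section 3. The level thus went up, down and up again in the first 4 sections. Each step held in all 4 replicates with both of its sections, though these were not the same 4 throughout. Replicates 1, 3 and 4 held all of the first 4 sections.

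The section 6 libraries of EXPA5 read 10.1, 9.55, 12.0, 11.2 and 9.12 FPKM, and those of section 9 read 7.76, 9.64, 12.6, 11.9 and 7.91. The highest single value was 17.8 FPKM, in the 1 library of section 7, which has no replicate. The 4 libraries left out there listed EXPA5 at 0, and with them the mean was 3.56 FPKM and section 6 was the highest. Section 8 was scattered, from 3.18 to 16.4 FPKM, in libraries at relative depths of 0.154 to 0.5. The part of depth in this scatter was not tested. Section 10 stood at 4.65 ± 0.85 FPKM, below every library of section 9, and sections 10 to 15 had means between 4.33 and 5.80 with overlapping ranges. The highest section differed between replicates: section 9 in 2, and sections 4, 7 and 8 in 1 each. Section 16 read 2.68, 1.34, 3.51, 1.94 and 7.86 FPKM, the highest in replicate 6, whose FPKM summed to 1689980 over all features.

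Ordered by section mean, neighbouring ranks mostly overlapped. For CesA-6 the order began with sections 2, 3, 1, 4 and 6, and of the 14 neighbouring pairs in the full order 11 overlapped in range. The pairs apart were sections 1 and 4, 6 and 7, and 7 and 8. For CesA-7 the order began with sections 4, 3, 6, 7 and 2, and the pairs apart were 6 and 7, 7 and 2, and 8 and 1. For xth1 it began with sections 3, 2, 4, 6 and 1, and the pairs apart were 4 and 6, 6 and 1, and 9 and 10. For EXPA5 it began with sections 7, 6, 9, 8 and 4, and sections 7 and 6 were the single pair apart. Each pair with section 7 rests on 1 library there.

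Late sections held libraries that stood far above the others in the same 3 genes. Section 14 replicate 2 read 65.5 FPKM for CesA-6, 140.2 for CesA-7 and 208.8 for xth1, against 9.51 to 25.2, 45.5 to 83.5 and 4.22 to 35.4 in the other 4 libraries. Its photosynthesis genes summed to 10934 FPKM, against 24437 to 31917 in the others and 9902 to 13988 in section 4. Section 12 replicate 4 and section 15 replicate 4 were also high in CesA-6, CesA-7 and xth1, with summed photosynthesis genes of 19017 and 22840 FPKM, the lowest of their sections. Without section 14 replicate 2, the section 14 mean of xth1 was 13.2 FPKM instead of 52.3 and that of CesA-6 was 15.4 instead of 25.4. These means still held section 14 replicate 3, closest to section 12, at 35.4 FPKM for xth1 and 25.2 for CesA-6. The medians without replicate 2 were 6.64 FPKM for xth1 and 13.4 for CesA-6. EXPA5 stood at 3.68 FPKM in section 14 replicate 2, the lowest of its section.

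CesA-6, CesA-7 and xth1 varied together over the libraries. On the log2(FPKM + 1) scale, Pearson r over the 69 libraries was 0.95 between CesA-6 and xth1, 0.87 between CesA-7 and xth1 and 0.85 between CesA-6 and CesA-7. EXPA5 had r between 0.26 and 0.39 with the other genes. After each section's mean was taken away, r over 68 libraries was 0.93 between CesA-6 and xth1 and 0.05 between CesA-7 and EXPA5. These values share libraries, depth and the libraries out of place, and are given as a description.

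The profiles most like each gene, by Pearson r over 15 section means among tested genes with a name, were 4 other cellulose synthases and MADS76 in the case of CesA-6. They were CesA-2 (r = 0.99), CesA-8 (0.99), MADS76 (0.99), CesA-9 (0.99) and CesA-1 (0.99). For xth1 they were Myb20 (0.98), bk4 (0.98), CesA-4 (0.97), CesA-9 (0.97) and b3gat3 (0.97). CesA-7 was closest to GLK44 (0.97), les22 (0.96), exg1 (0.96), mif (0.96) and TIFY17 (0.95). EXPA5 had no equally close profile, and its nearest were CHL (0.84), HB115 (0.82), DBP1 (0.81), PSA2 (0.81) and sod-1a (0.81).

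The steps compared along the leaf were section 4 against 1, 9 against 4 and 16 against 9, which share the libraries of sections 4 and 9. Differences are on the log2(FPKM + 1) scale. From section 1 to 4, CesA-7 differed by 1.56 ± 0.25 (limma SE), xth1 by 1.81 ± 0.57, EXPA5 by 1.30 ± 0.27 and CesA-6 by -0.26 ± 0.29. From section 4 to 9, CesA-6 differed by -1.30 ± 0.27, CesA-7 by -1.58 ± 0.23, xth1 by -2.37 ± 0.53 and EXPA5 by 0.37 ± 0.26. From section 9 to 16, all 4 were lower, CesA-6 by -1.08 ± 0.27, CesA-7 by -1.34 ± 0.23, xth1 by -2.13 ± 0.53 and EXPA5 by -1.44 ± 0.26. The median over all 23052 tested genes was -0.02 for 4 against 1, -0.59 for 9 against 4 and 0.08 for 16 against 9. With upper quartile scaling the second median was -0.22, and the 9 against 4 difference was -0.82 for CesA-6, -1.08 for CesA-7, -1.88 for xth1 and 0.80 for EXPA5.

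Other wall genes were taken from the names in a reference table, and of these 34 were tested. A gene was called at a limma adjusted p under 0.05 over all tested genes and a log2 change of at least 1. From section 1 to 4, 13 rose and 6 fell, with a median log2 change of 0.55. Of all tested genes 19.2% rose and 18.1% fell in that comparison, 37.3% in all. From section 4 to 9, 26 fell and 0 rose (median -1.95), against 30.3% and 5.03% of all tested genes, or 35.3% changed. These shares depend on the scaling. With upper quartile scaling 21 wall genes fell and 1 rose, beside 4374 and 1914 of the 23052 tested genes. With quantile normalization 19 wall genes fell and 1 rose, beside 3105 and 3103. At an unadjusted limma p under 0.05, 1 wall gene was higher and 27 were lower in the main fit. The numbers were 2 and 25 with upper quartile scaling, and 4 and 21 with quantile normalization. From section 9 to 16, 11 fell and 1 rose (median -0.66), against 4.49% and 7.67% of all tested genes, or 12.2% changed. With upper quartile scaling 14 wall genes fell and 0 rose (1 was higher at an unadjusted p under 0.05 in limma), beside 1479 and 985 of all tested genes. The 11 became 4 without replicate 1, 6 without replicate 4, 5 when only the sections compared were fitted and 0 with the 6 shallow libraries. With those libraries 11 wall genes were lower at an unadjusted p under 0.05 in limma.

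**Figure D3:**
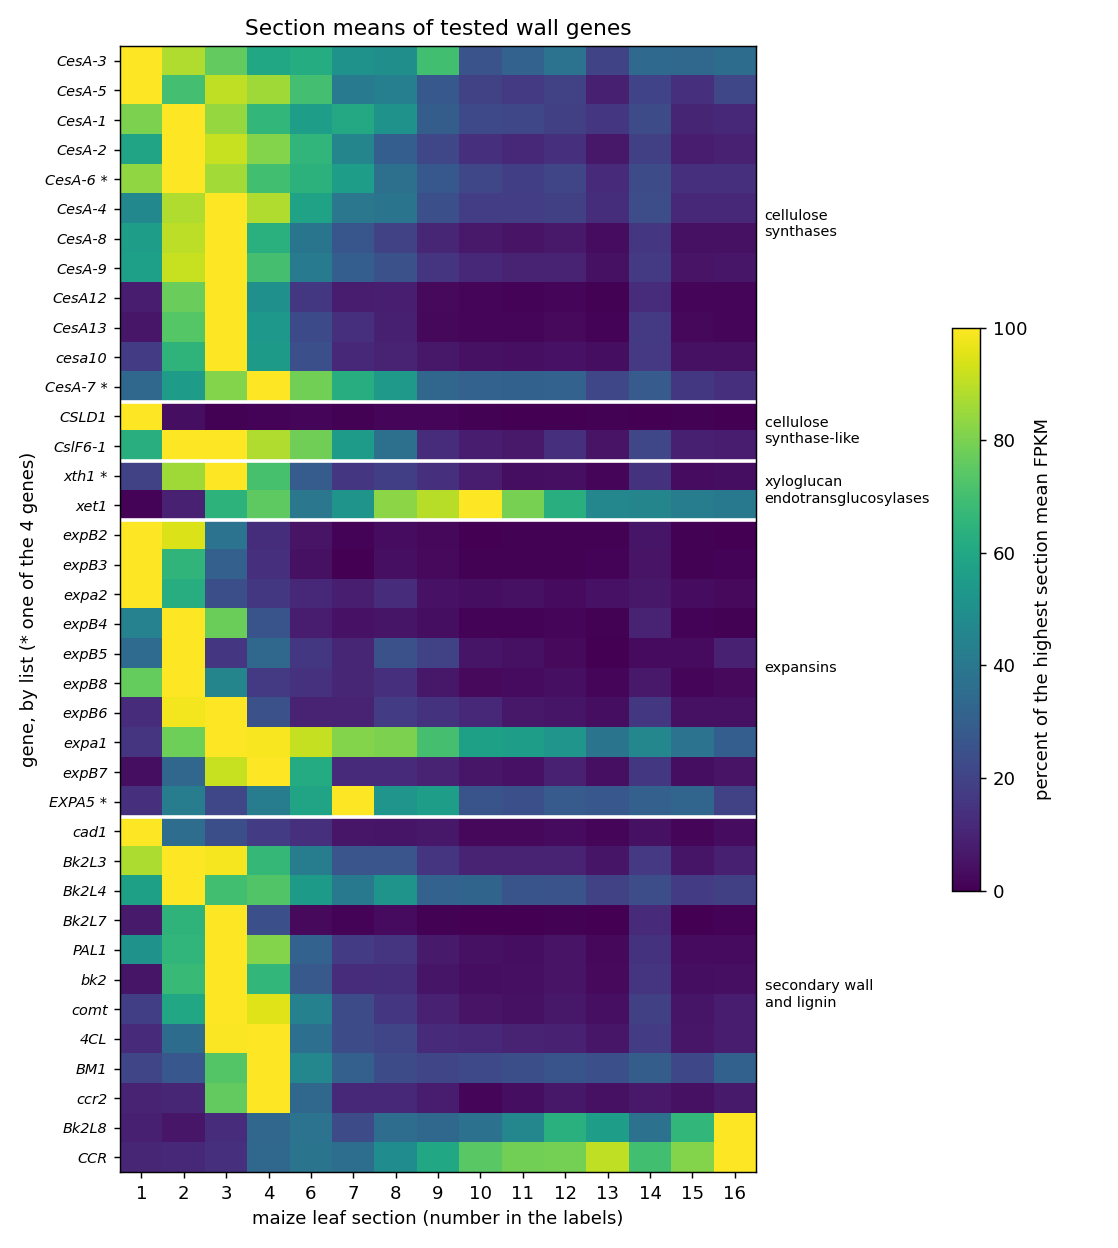
Section means of the tested wall genes as percent of each gene's highest section mean FPKM (colour), by maize leaf section (horizontal axis) and gene, grouped by list (vertical axis). Asterisks mark the 4 genes described here. CesA-7 peaks in section 4, after the other cellulose synthases, and xet1 in section 10, and the raised column of section 14 holds the out of place replicate 2.

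Among the 10 other tested cellulose synthases, 3 rose from section 1 to 4 and 9 of 10 fell from section 4 to 9. Of all tested genes, 19.2% rose in the former step and 30.3% fell in the latter. The 3 that rose were CesA12 by 2.52 ± 0.56 (limma adjusted p = 0.000116), CesA13 by 2.00 ± 0.34 (1.1e-06) and cesa10 by 1.57 ± 0.37 (0.000336). The secondary wall gene CesA12 read 8.86 to 10.3 FPKM in section 1, 31.7 to 74.3 in section 4 and 1.27 to 6.51 in section 9. Its companion cesa10 read 48.3 to 51.9, 88.4 to 175.8 and 14.3 to 23.1 FPKM in the same sections. None of these ranges overlapped.

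The primary wall genes CesA-1, CesA-2, CesA-5, CesA-8 and CesA-9 did not pass from section 1 to 4, with log2 changes of -0.26, 0.45, -0.24, 0.17 and 0.29. CesA-4 differed by 0.86 and CesA-3 by -0.68, under the size required. In the next step CesA-8 fell by 2.49 ± 0.46 on the log2 scale (limma adjusted p = 9.51e-06), from 52.9 to 88.1 FPKM in section 4 to 10.1 to 16.6 in section 9. CesA12 fell by 3.97, cesa10 by 2.95, CesA13 by 2.43, CesA-9 by 2.03, CesA-2 by 1.87 and CesA-4 by 1.73. CesA-5 fell by 1.59 and CesA-1 fell by 1.04. The call of CesA-1 was lost with quantile normalization (adjusted p = 0.171), with upper quartile scaling (-0.59) and without replicate 4 (-0.94), and that of CesA-5 with quantile normalization (-0.90). CesA-3 differed by 0.08 ± 0.25 and did not pass.

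From section 9 to 16 5 of the 10 fell, against 4.49% of all tested genes. CesA-1 fell by 1.14, CesA-2 fell by 1.32, CesA-4 fell by 1.02, CesA-8 fell by 1.25 and CesA-9 fell by 1.29. Each of these 5 calls was lost with the shallow libraries in the fit and without 1 or more of the replicates. CesA-1 lost it without replicate 2, CesA-2 and CesA-9 without replicate 1, CesA-4 without replicates 1, 2 or 4, and CesA-8 without replicates 1, 3, 4 or 6. When only the sections compared were fitted, CesA-4 alone among the 5 passed, and CesA-8 was also lost with no filter on low values (adjusted p = 0.0794). CesA-3, CesA-5, cesa10, CesA12 and CesA13 did not pass, with log2 changes from -0.77 to -0.11. CesA-5 passed without replicate 6 (-1.22) and without section 16 replicate 6 alone (-1.06). Both features named cesa11 and 1 of 2 named CesA-9 fell below the filter, and 2 of these 3 were listed at 0 in every library.

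The other tested xyloglucan endotransglucosylase, xet1 (GRMZM2G026980), had its highest mean in section 10, where xth1 was low. The libraries ran from 0.409 to 0.890 FPKM in section 1 and 35.6 to 53.6 in section 4, then 43.0 to 74.4 in section 9 and 20.3 to 33.6 in section 16. The xet1 level rose by 4.85 ± 0.25 from section 1 to 4 (limma adjusted p = 3.06e-24) and differed by 0.22 ± 0.24 from 4 to 9, which did not pass (0.441). From section 9 to 16 it fell by 1.10 ± 0.24 (0.00029), a call lost without replicate 4 (-0.96) and with the shallow libraries (adjusted p = 0.151). In section 10 its mean was 59.6 ± 6.4 FPKM and that of xth1 was 26.8 ± 1.5.

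Of the 9 other tested expansins, 2 rose and 4 fell from section 1 to 4, against 19.2% and 18.1% of all tested genes. The beta-expansin expB7 rose by 3.44 ± 0.43 (limma adjusted p = 9.41e-10) and the alpha-expansin expa1 by 2.64 ± 0.21 (1.32e-16), while expB2 fell by 2.74, expB3 by 2.71, expa2 fell by 2.30 and expB8 fell by 2.13. From section 4 to 9, 6 fell and 0 rose, with expB7 by 2.76, expB4 by 2.62 and expB2 by 2.03 in front, where 30.3% of all tested genes fell. With quantile normalization 3 expansins fell, beside 3105 of the 23052 tested genes. Then expB3 (-0.82, limma adjusted p = 0.0716) and expB8 (-0.65, 0.21) were among the expansins that no longer passed. In the main fit, the single wall gene that was higher in that step at an unadjusted limma p under 0.05 was no expansin but CCR. From section 9 to 16, expB4 fell by 2.06, expB6 by 1.80, expB8 by 1.39 and expa1 by 1.27. Of these, expB4 lost its call without replicates 1 or 6 and expB8 without replicates 1 or 4, and all 4 lost theirs with the shallow libraries.

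The alpha-expansin expa1, chosen for this comparison after its values were seen, had its highest mean earlier than EXPA5 and at a higher level. It read 12.2 to 15.9 FPKM in section 1, 75.4 to 107.4 in section 4, 59.9 to 82.1 in section 9 and 19.3 to 41.1 in section 16. It differed by -0.48 ± 0.20 from section 4 to 9, under the size required. Of the 15 other expansin features 4 were listed at 0 in every library and 6 in all lay under the filter.

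The remaining lists held the cellulose synthase-like genes and those of lignin and secondary walls. CSLD1, a cellulose synthase-like gene, fell by 4.24 ± 0.19 from section 1 to 4 (limma adjusted p = 1.44e-26). CslF6-1, which codes for a synthase of mixed-linkage glucan, differed by 0.48 ± 0.51 in that step and fell by 2.77 ± 0.48 from section 4 to 9 (3.08e-06). Of the 12 tested secondary wall and lignin genes, 7 rose and 1 fell from section 1 to 4, against 19.2% and 18.1% of all tested genes. Among them bk2, a COBRA-like gene needed for stalk strength, rose by 3.34 and 4CL, of monolignol synthesis, by 2.95, and cad1 fell by 2.37. Bk2L7 rose by 1.55, a call lost without replicates 1, 3 or 4 and with the shallow libraries. It was also lost with 0.1 in place of 1 added to FPKM. From section 4 to 9, 10 fell and 0 rose, led by Bk2L7 (4.08), PAL1 (3.45), the entry enzyme of the phenylpropanoid pathway, and bk2 (3.41). Of all tested genes 30.3% fell and 5.03% rose in that step. The call of cad1 there was lost with upper quartile scaling (-0.91) and with quantile normalization (-0.61). It was also lost with 0.1 in place of 1 added to FPKM (limma adjusted p = 0.0641). CCR went the other way, by 0.81 ± 0.22 (limma adjusted p = 0.00136), under the size required. With upper quartile scaling or quantile normalization 1 gene of this list rose, beside 1914 or 3103 of the 23052 tested genes. From section 9 to 16, 1 of 12 rose, Bk2L8 by 1.13, and 1 fell, against 7.67% and 4.49% of all tested genes. PAL1 fell by 1.59 on the log2 scale. The 1 that fell became 3 with upper quartile scaling, with quantile normalization or without section 16 replicate 6, where 4CL passed too (-1.08, -1.02 and -1.01). Of all tested genes 1479 fell with upper quartile scaling and 1269 with quantile normalization, against 1034 in the main fit. Bk2L8 lost its call without replicates 4 or 6 and with either rescaling. PAL1 lost its call without replicates 1, 4 or 6, with the shallow libraries, when only the sections compared were fitted, and with no filter on low values (adjusted p = 0.0568).

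**Figure D4:**
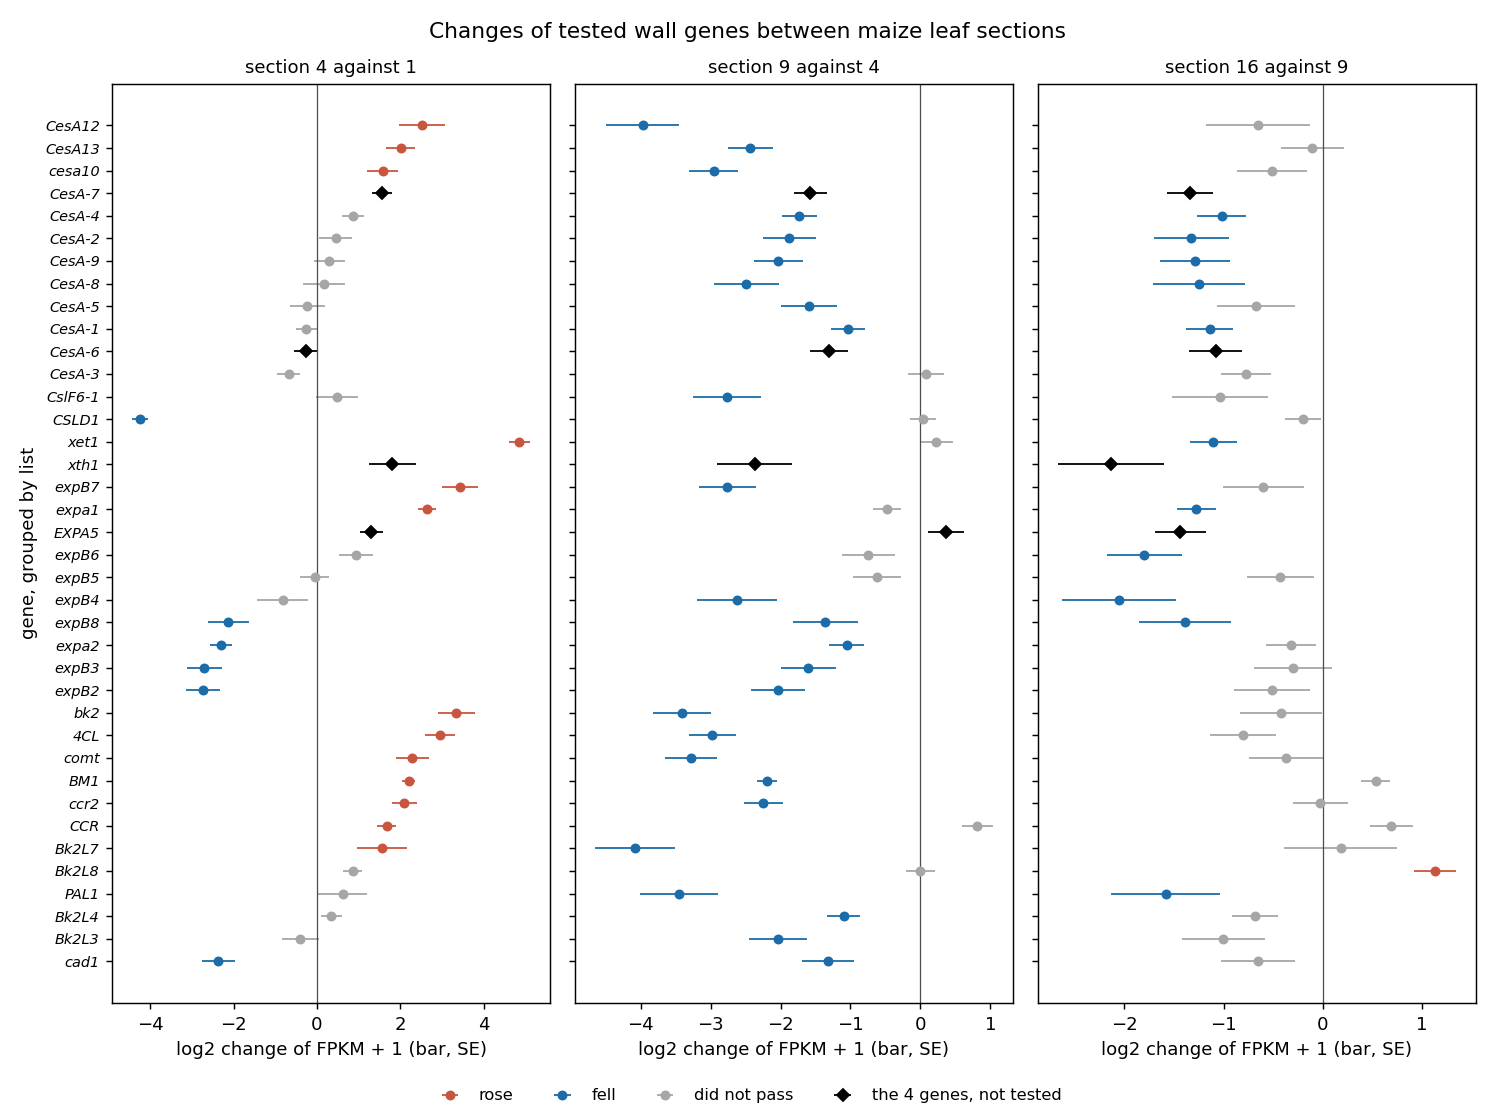
Log2 change of FPKM + 1 with its limma SE (horizontal axis, a different scale in each panel) for the tested wall genes (vertical axis, grouped by list) in 3 comparisons of maize leaf sections. Red genes rose and blue genes fell at an adjusted p under 0.05 and a log2 change of at least 1, grey genes did not pass, and black diamonds are the 4 genes described here, which were not tested. In section 9 against 4, 26 of 34 genes fell, against 30.3% of all tested genes, and 8 did not pass. EXPA5 stood at 0.37, and among those that did not pass CCR stood at 0.81 and xet1 at 0.22.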

How the data were processed

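Polyadenylated RNA was extracted with TRIzol and sequenced with strand-specific libraries, per the labels' protocols. The authors deposited a maize table of FPKM values. Per the submitters' processing notes, TopHat2 2.0.10, Cuffdiff 2.1.1 and the build B73 RefGen_v3 were used. The division of reads among similar genes is not given in the sources used here, so levels of close paralogs, the CesA and expansin families among them, are uncertain. Columns without a labelled sample numbered 0. The design text names 6 maize replicates, of which 5 were analysed here.

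The 4 genes, the wall lists and the libraries left out were chosen with earlier results of these data known. Names came from a reference table of another assembly (Zm-B73-REFERENCE-NAM-5.0), which gave an entry for 13011 of the 23052 tested genes, and a name for 1845. The table holds names and no descriptions, so lists rest on names, and none matched the pectin list. The tested genes had a mean FPKM of at least 1. Tests used limma 3.58.1 in R 4.3.3 on log2(FPKM + 1), with a mean-variance trend, over all 69 libraries, two-sided with Benjamini-Hochberg adjustment. Fold changes on that scale understate low genes. The test was also run on simulated data, with independent noise for each gene and library. That simulation held no out of place libraries, so it cannot show that the calls hold here. Named were all tested cellulose synthases, and the 3 genes that changed most per other list and comparison. For each of the 4 genes the 5 nearest profiles were also named. Other genes named were chosen after their values were seen.

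Per the labels' protocols, each biological replicate was a pool of plants and replicates were collected on different dates. Libraries with the same number were therefore compared with each other where replicates were counted. The main fit held no replicate block, so its p-values treat the libraries as unpaired. A replicate block was used only as an alternative. The date of each library is not given in the sources used here. Once section means were taken away, the median correlation was 0.0146 for libraries sharing a number and -0.00436 for others. P-values rest on a spread between pools that was estimated over all 15 sections, the out of place libraries included.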

Additional observations from a re-analysis of the deposited data

Results flagged for a closer look

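Within each section, 76 groups of 4 or 5 libraries were checked for a library far from the others, and 17 held one, where chance gives about 1 in 20. Of the 56 groups of the 4 genes 13 held one. The 1 in 20 is for independent groups. These groups share libraries and genes that vary together, so the 17 are not separate events. Section 12 replicate 4 stood high in CesA-6 (42.6 FPKM against 17.4 to 18.9), CesA-7 (116.9 against 60.0 to 74.4) and xth1 (43.0 against 6.43 to 9.61). Section 15 replicate 4 stood high in the same genes, at 30.2 FPKM for CesA-6 (9.11 to 14.5 in the others), 90.5 for CesA-7 (23.9 to 32.6) and 39.7 for xth1 (3.89 to 7.42). Section 14 replicate 2 stood high in CesA-6, at 65.5 FPKM, and in xth1, at 208.8. Section 16 replicate 3 stood high in CesA-7, at 68.5 FPKM against 20.1 to 33.0.

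Replicate 6 stood apart in other sections. In section 2 it was low for xth1 (182.2 FPKM against 315.4 to 356.3) and high for EXPA5 (10.6 against 6.19 to 7.21). It was high for EXPA5 in section 10 (6.13 against 4.08 to 4.65) and low for CesA-7 in section 11 (64.5 against 78.1 to 83.3). In section 4 it was low for cesa10 (88.4 against 164.3 to 175.8), CesA12 (31.7 against 64.7 to 74.3) and CesA-8 (52.9 against 81.4 to 88.1). In section 16 it was high for xet1, at 33.6 FPKM against 20.3 to 23.3.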

How the results depend on the processing

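Under 14 alternatives no difference of the 4 genes changed sign. With quantile normalization the difference of section 4 against 1 in CesA-6 was -0.45, and those of section 9 against 4 were -0.67 for CesA-6, -1.05 for CesA-7, -1.85 for xth1 and 1.08 for EXPA5. With upper quartile scaling the latter were -0.82, -1.08, -1.88 and 0.80. With the 6 shallow libraries EXPA5 differed by 1.66 in section 4 against 1. Without single replicates CesA-6 ranged from -0.30 to -0.22, -1.42 to -1.26 and -1.26 to -0.93 in the 3 comparisons in leaf order, CesA-7 from 1.51 to 1.69, -1.69 to -1.47 and -1.61 to -1.15, xth1 from 1.74 to 1.97, -2.58 to -2.26 and -2.46 to -1.86, and EXPA5 from 1.03 to 1.42, 0.26 to 0.56 and -1.79 to -1.25.

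Of all genes, in section 9 against 4, 4374 fell and 1914 rose with upper quartile scaling and 3105 and 3103 with quantile normalization, against 6981 and 1159. In section 16 against 9, 1034 fell and 1769 rose. This became 328 and 876 with the shallow libraries and 407 and 1070 when only these sections were fitted, and the rise was 985 with upper quartile scaling and 1140 with quantile normalization. Without single replicates the rise ran from 1150 to 1992. The 11 wall genes that fell in section 16 against 9 became 0 with the shallow libraries (11 at an unadjusted p under 0.05 in limma) and 5 when only these sections were fitted, and ran from 4 to 11 without single replicates. The 1 that rose became 0 with either scaling (limma; 1 was higher at an unadjusted p under 0.05 in each), with a range of 0 to 1 without single replicates. In section 9 against 4, 1 wall gene rose with either scaling. The cause of these shifts was not tested.

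With a replicate block, 13 wall genes rose and 6 fell in section 4 against 1, 26 fell in 9 against 4, and 11 fell and 1 rose in 16 against 9, the counts given without it, and the block changed no call of a named gene. Over 75 pairs of 25 named wall genes and a comparison, each under 14 alternatives, 57 calls were lost, 11 were gained and none was reversed. EXPA5 had the lowest level of the 4 genes, 6.30 FPKM on average, and FPKM gives no read counts from which its counting error could be set.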
